A study of Mus musculus with 12 samples.

Results

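Deletion of Col17a1 was examined in hair follicle stem cells (HFSCs) taken 3 days after the hair had been plucked, by setting 1 array of Col17a1 conditional knockout (cKO) cells against 1 array of control cells. These are 2 of the 12 one-colour microarrays of a study of mouse skin on hair follicle aging, chosen by their titles and by no measured value. The cKO mice were 12 weeks old, carried a Col17a1 deletion driven from the K14 promoter and had been given 2 mg of tamoxifen on each of 5 days; their labels name no strain. The control mice were wild-type C57BL/6 of 12 weeks with the same tamoxifen. Genotype and strain background therefore cannot be told apart in any difference between cKO and wild-type arrays below. A further array of plucked HFSCs, from 8-week wild-type C57BL/6 mice without tamoxifen in the labels (young plucked), served as a check, and the resting cKO and control HFSC arrays (12 weeks, tamoxifen, not plucked) were set beside them. Single wild-type C57BL/6 arrays of resting HFSCs from 8-week mice (young resting) and of plucked and resting HFSCs from mice of at least 22 months (aged plucked, aged resting), all without tamoxifen in the labels, are quoted where they show which array of a pair lay apart. All HFSCs were sorted as CD34-high, ITGA6-high and SCA1-negative cells. The K14 promoter is active in the basal layer of the whole epidermis, so the deletion was not limited to stem cells. The labels do not say from how many mice each array came.

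Of 34742 gene names on the array, 25063 were well above background on at least 1 of the cKO plucked and control plucked arrays, and these are the genes described. Well above background is a flag that the scanner software sets for each spot. A level is the log2 spot intensity relative to the 75th percentile of its array, so a difference of 1 is 2-fold. With 1 array a group there is no spread between replicates, no test and no p-value, and a gene was counted as apart at a difference of 2-fold or more, provided that its brighter array was well above background. The difference between the wild-type plucked arrays is given beside the cKO values as a measure of how far arrays of the same genotype lay apart; it also includes tamoxifen, 4 weeks of age and the slide.

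COL17A1 spans the membrane as a collagen in hemidesmosomes, the junctions that tie the keratin filaments of basal keratinocytes through alpha-6 beta-4 integrin to laminin-332 in the basement membrane. Stem cells of the hair follicle bulge rest in a BMP-rich niche, express CD34 and keratin 15, and are held to the basement membrane by hemidesmosomes. Plucking removes the hair shaft and starts a new round of hair growth, for which bulge and hair germ cells enter the cell cycle.

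The probes whose readings carry or limit the findings below are shown by the first 30 of their 60 bases, as deposited with the arrays (5′ to 3′, mm9 coordinates and strand of the whole probe in the array files). Col17a1 is the deleted gene; the sources do not place its probe inside or outside the deletion, so the reading cannot serve as a check of the genotype. Cd151 and Bmp4 are the hemidesmosome and the BMP gene that lay farthest from the control, and Fbln7 and Taok3 each have a pair of probes that point in opposite directions. Of 161 named and list genes with more than 1 usable probe, 68 had probes on both sides of 0, some only narrowly, such as Lgr5 (-0.02 and 0.04). Conflict as large as in Fbln7 and Taok3 was rare. In 3 genes, Fbln7, Taok3 and Parva, the probes were at least 2-fold from the control in opposite directions. A value read from a single probe carries that limit.
Col17a1, chr19:47720894-47720953, minus strand: ggcacagttggtttttatttaagcactttc
Cd151, probe used, chr7:148656555-148656614, plus strand: acctgctgcttgtaccgaagcctcaagctg
Cd151, second probe, chr7:148657237-148657297, plus strand: atgttcctgacactgtctccttttggagca
Bmp4, chr14:47003391-47003450, minus strand: caaccacctacacataccacacaaactgct
Fbln7, probe used, chr2:128721383-128721442, plus strand: aaggacacattgtgggcaagagctgtggtg
Fbln7, second probe, chr2:128722710-128722769, plus strand: taagggcctgaggatttgcttttccaggtt
Taok3, probe used, chr5:117715938-117715997, plus strand: ttcaggacacttgcaaagtacagaccaaac
Taok3, second probe, chr5:117725148-117725207, plus strand: catttttcaggtcccaaggaagagcatgat

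The share of spots well above background was 61.34% on the cKO plucked array, 64.23% on the control plucked array and 62.67% on the young plucked array. Over all 55681 probes the cKO plucked array correlated with the control plucked array at r = 0.9429 and with the young plucked array at r = 0.9439, and the wild-type arrays correlated with each other at 0.9531 (across probes, which are not replicates). The cKO plucked and control plucked samples lay on slide 2, in columns 3 and 1 of the same row, and the young plucked sample on slide 1. Control against young therefore cannot be told apart from the slide, while cKO against control was made within a slide. The resting cKO array had the lowest share of spots well above background of the 12 arrays, 49.71%, against 59.97% on the resting control array, and the most outlier spots of the 12 arrays, 269, against 149 on the resting control array. The resting control array had the lowest median correlation with the other arrays of the 12, 0.8877, against 0.8926 for the resting cKO array. The part of either array in the resting differences was not tested, and these differences are quoted with that limit.

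The sorted cells carried the transcripts of the bulge on all 3 plucked arrays. Cd34, the surface marker of the sort, stood at 3.69 in cKO plucked, 4.39 in control plucked and 3.62 in young plucked cells. Krt15 was at 5.80, against 5.99 and 5.84, and Lhx2, a bulge transcription factor, at 6.25, against 6.40 and 6.15. Ly6a, which encodes SCA1, was at -3.65 in cKO plucked, against -2.95 in control plucked and -2.05 in young plucked cells. None of these 4 markers lay 2-fold from the control.

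At the 2-fold threshold, 2902 genes (11.6%) were higher in cKO plucked than in control plucked HFSCs and 3016 (12.0%) were lower. Against the young plucked array, 3384 genes (13.7%) were higher and 3653 (14.7%) lower in cKO plucked cells. The wild-type pair gave counts of the same order: 2591 genes (10.3%) were higher and 3120 (12.4%) lower in control plucked than in young plucked cells. The median absolute difference over all genes was 0.45 for cKO against control, 0.59 for cKO against young and 0.51 for control against young plucked cells. The shares for cKO against control were thus close to those between a pair of wild-type arrays. Of the genes apart from the control, 54.1% of the higher and 49.4% of the lower were also at least 2-fold apart from the young plucked array in the same direction, which left 1569 higher (6.54%) and 1490 lower (6.21%) of the 23980 genes kept in both comparisons. With background corrected by normexp, which pulls dim spots together, the 2-fold counts against the control were 894 higher and 898 lower.

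How often genes lay 2-fold apart depended on their brightness. Among genes with a mean level below -4 over the 12 arrays, 62.8% were at least 2-fold apart between cKO plucked and control plucked cells, and 64.9% between control plucked and young plucked cells. Among the 1839 genes above 4, it was 0.381% between cKO and control, 7 genes, and 2.83% between control and young. Bright genes of cKO plucked cells therefore lay closer to those of their slide-mate control than the wild-type arrays on different slides lay to each other.

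**Figure D1:**
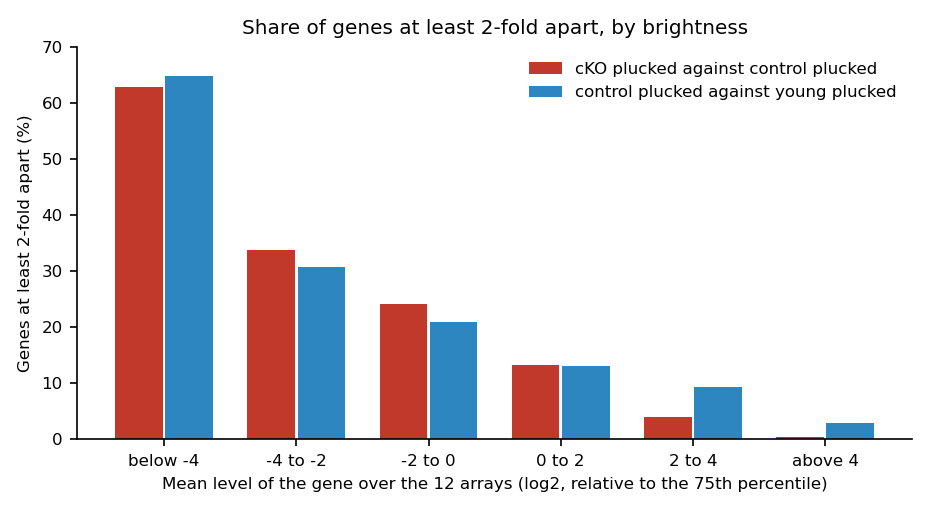
The bars give the percentage of genes at least 2-fold apart (vertical axis) in 6 bins of mean level over the 12 arrays (horizontal axis, log2 relative to the 75th percentile), for cKO plucked against control plucked (red) and control plucked against young plucked (blue). The red bars run from 62.8% in the dimmest bin to 0.381% in the brightest, and the blue bars from 64.9% to 2.83%.

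With the probe used for each gene, the hemidesmosome genes of cKO plucked cells lay within 2-fold of the control, apart from Cd151. Of the 12 genes of the list, all well above background, none was at least 2-fold higher than in control plucked cells (background 11.6%). Only 1 was lower (8.33%, against 12.0% over all genes), and 10 of the 12 differences were below 0 (median -0.14, against 0.03 over all 25063 genes). With the median of each gene's probes, the median of the list was -0.31. All 12 had a mean level of at least 2 over the 12 arrays. Of all 4772 genes that bright, 2.56% were at least 2-fold from the control, so lying within 2-fold was usual at this brightness. Col17a1 itself stood at 5.79 in cKO plucked cells, against 6.22 in control plucked, 5.67 in young plucked and 6.19 in aged plucked cells. Its difference from the control was -0.43, a ratio of 1.35, and the cKO value lay inside the range of the 3 wild-type arrays.

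Cd151, a tetraspanin that associates with laminin-binding integrins in hemidesmosomes, was at 1.13 in cKO plucked cells, against 3.02 in control plucked, 2.26 in young plucked and 2.42 in aged plucked cells. The cKO array was the lowest of the 4. The difference from the control was -1.89 (3.72-fold lower) and from the young array -1.13. In resting cells Cd151 was at 2.73 in cKO, against 4.24 in control, 2.96 in young and 2.34 in aged cells, so there the cKO value lay within the wild-type range and the control was the high one. The second Cd151 probe gave 0.52 in cKO plucked, against 0.92 in control plucked and 0.68 in young plucked cells, a difference of -0.40 from the control in the same direction and under 2-fold.

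Itga6 and Itgb4, the chains of the hemidesmosomal integrin, were at 4.32 and 3.39 in cKO plucked cells, against 4.49 and 3.92 in control plucked cells. The second Itga6 probe differed from the control by -0.95. Plec and Dst, the plakins that bind keratin filaments, differed from the control by 0.09 and -0.12. The 4 kept Dst probes ran from -1.09 to -0.12, so whether Dst lay within 2-fold depends on the probe. Lama3 and Lamb3, chains of laminin-332, differed by -0.02 and -0.39. Col7a1, the anchoring fibril collagen beneath the plaque, differed by 0.26, and Krt5 and Krt14, the basal keratins, by -0.08 and -0.03. Against the young plucked array the median of the list was 0.24, and between control and young plucked cells it was 0.54. The list therefore changed the sign of its median with the wild-type array it was set against.

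**Figure D2:**
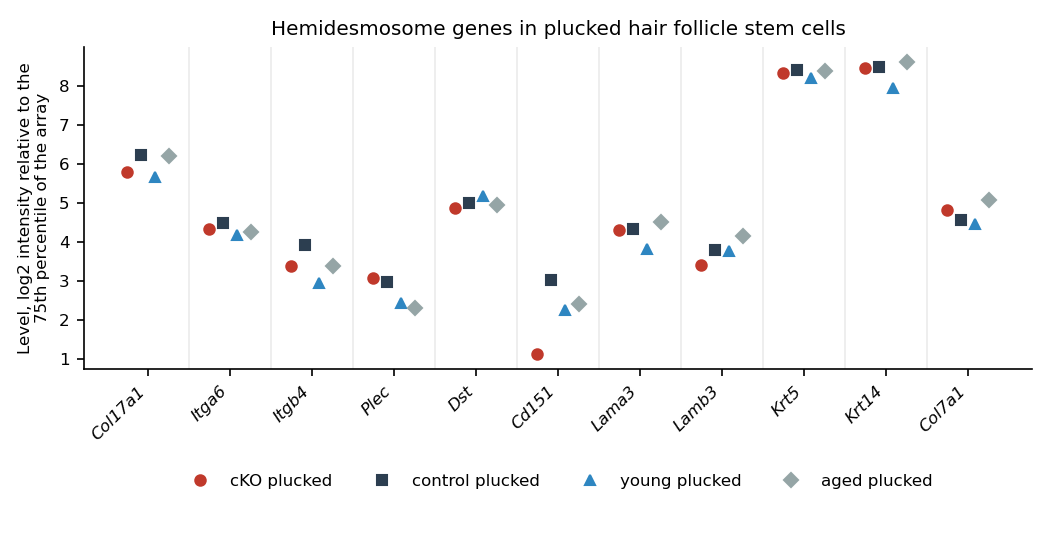
Points give the level (log2 intensity relative to the 75th percentile of the array) of 11 hemidesmosome genes on the cKO plucked (red circles), control plucked (dark squares), young plucked (blue triangles) and aged plucked (grey diamonds) arrays, 1 array each. Cd151 is the gene at which the cKO point, 1.13, sits farthest below the wild-type points, 2.26 to 3.02.

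The genes farthest above both wild-type plucked arrays, measured on all 3, were led by Prrt4, Bmp4 and Rin1. Bmp4, a BMP ligand, was at 1.29 in cKO plucked cells, against -2.61 in control plucked and -2.11 in young plucked cells, 15.0-fold and 10.6-fold higher. The aged plucked array was at -1.87, so all 3 wild-type plucked arrays lay together and far below the cKO array. In resting cells Bmp4 was at -2.63 in cKO, against 2.35 in control, -1.74 in young and -1.86 in aged cells, so there the control array alone stood apart. A second Bmp4 probe was not well above background on the cKO plucked or the control plucked array and gives no check.

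Prrt4 was at -0.65 in cKO plucked cells, against -4.17 in control plucked and -4.10 in young plucked cells. Rin1, a RAS effector that activates RAB5, was at 1.48, against -3.53 and -1.88. Arhgap4, a GTPase-activating protein, was at 2.16, against -1.60 and -0.75. A second Arhgap4 probe was also higher than in the control, by 1.73. Each of these genes was separated from both wild-type arrays by more than the wild-type arrays from each other.

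The other 8 genes of this group were Cyp3a44 (a cytochrome P450), Dlgap3 (a postsynaptic scaffold protein), Lpin2 (a phosphatidate phosphatase), Fbln7 (a fibulin of the extracellular matrix), Ccdc153, Cabp4 (a calcium-binding protein of photoreceptor synapses), Tmem88b and Lmo3 (a LIM-only transcriptional cofactor). Their differences from the control ran between 2.63 for Cabp4 and 4.63 for Tmem88b, and from the young array between 2.57 for Lmo3 and 3.15 for Ccdc153. The second Dlgap3 probe differed by -0.56, against 3.48 for the probe used, and the second Lmo3 probe by 1.03. Fbln7 depends on the probe: the probe used was 4.08 higher than in the control, and the second pointed the other way, at -5.91 and not well above background in cKO plucked cells, against -1.78 in control plucked cells.

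Among the genes farthest below both wild-type plucked arrays, Tex19.1, a gene of germ and placental cells, was at -3.28 in cKO plucked cells, against 1.96 in control plucked and 0.42 in young plucked cells. Tshz3, a zinc-finger transcription factor, was at -3.88, against -0.38 and -0.49. Mrpl53, a protein of the mitochondrial ribosome, was at -1.53, against 1.75 on both wild-type arrays. For Tshz3 and Mrpl53 the control plucked and young plucked values nearly coincided. In resting cells Tshz3 was not well above background in cKO or control, with -0.64 in young and -0.63 in aged cells. Mrpl53 was at -1.49 in resting cKO, against -2.41 in control, 2.05 in young and 0.66 in aged cells. Low values of both genes were thus also read on a wild-type array, the resting control.

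Cyba, which encodes the p22phox subunit of NADPH oxidase, was at -2.93 in cKO plucked cells, against 0.52 in control plucked, -0.02 in young plucked and 0.51 in aged plucked cells. It was also low in resting cKO cells, at -2.32, against 0.45 in resting control cells. Rabgef1, an activator of RAB5, was at -3.53, against -0.33 in control plucked and 0.24 in young plucked cells, and its second probe was lower by 1.19. Both cKO arrays were thus the low ones for Cyba, whose second probe was not well above background on either plucked array of the pair.

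Angptl7, a secreted angiopoietin-like protein, was at -3.25 in cKO plucked cells, against -0.24 and 0.84 in control plucked and young plucked cells. Taok3, a STE20-family kinase, was at -3.33, against -0.03 on both arrays, but its second probe was 1.52 higher than in the control. The other 5 genes, Prrg3, Tmem47, Rtn4ip1, Capn5 (a calpain protease) and Rnf41 (a ubiquitin ligase), differed from the control by -3.66 to -2.82; second probes of Rnf41 and Capn5 differed by -0.88 and -1.31.

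**Figure D3:**
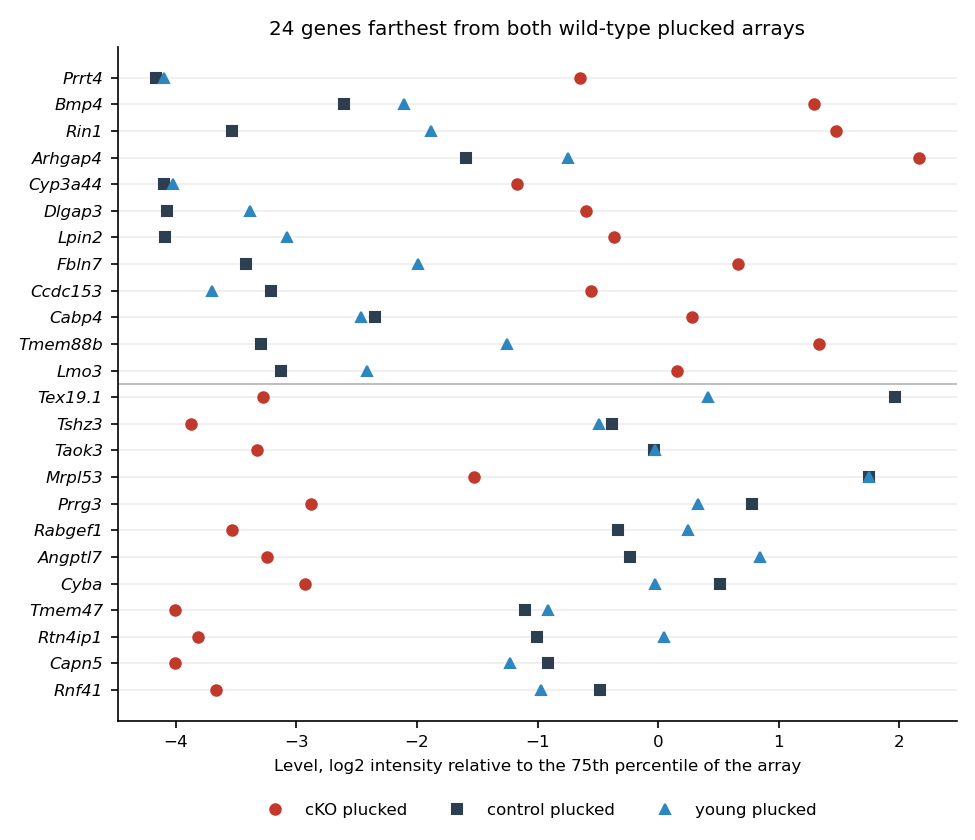
Each row is a gene and each point its level on 1 array (horizontal axis, log2 intensity relative to the 75th percentile of the array): cKO plucked (red circles), control plucked (dark squares) and young plucked (blue triangles). In the upper 12 genes the cKO point lies right of both wild-type points, and in the lower 12 left of both; for Bmp4 the cKO point is at 1.29 and the wild-type points at -2.61 and -2.11.

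Some genes were well above background on only 1 side, so their folds are given as lower bounds. Each was set against the lowest signal that counted as above background on the dim array, or the measured dim value where higher. Genes with curated symbols that were above background in cKO plucked, but in neither control plucked nor young plucked cells, were ranked by brightness. The brightest were Fyb, Gypc, Gng13, Igf2bp1, Slc24a1 and Itga10. Fyb, an adaptor protein of T cells and platelets, was at least 38.2-fold higher than in control plucked cells. Gypc, a glycophorin that links membrane to cytoskeleton, was at least 24.9-fold higher, and it was high in resting cKO cells too, at 1.10, against -3.43 in resting control cells. Igf2bp1, an mRNA-binding protein, was at least 17.4-fold higher and Itga10, a collagen-binding integrin chain, at least 17.1-fold higher than in control plucked cells. Itga10 was well above background on the aged plucked array too, at -1.10, against -0.50 in cKO plucked cells.

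On the opposite side, Fgl1, a secreted fibrinogen-like protein, was at least 33.0-fold lower in cKO plucked than in control plucked cells, with 0.81 in control plucked and 0.44 in young plucked cells. Dmxl2, which acts in the acidification of vesicles, was 22.4-fold lower. Borcs6, a subunit of a complex that moves lysosomes, was 15.5-fold lower, and it was low in resting cKO cells as well, at -2.46, against -0.17 in resting control cells. The plucked folds of Dmxl2 and Borcs6 use the measured cKO plucked values, which were not well above background. Ifi202b, an interferon-inducible DNA-binding protein, was at least 20.5-fold lower, Spata33 at least 21.9-fold and Bcl2l15, a member of the BCL2 family, at least 9.37-fold. The value of Bcl2l15 was close to 0 as the median of its 3 probes, -0.12.

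Bright genes, with a mean level of at least 2 over the 12 arrays, were looked at separately after their values had been seen, because few of them lay apart. Of 4772 such genes, 2.56% were at least 2-fold from the control, and 14 were higher and 34 lower than on both wild-type arrays. Mfn2, which fuses mitochondria, was at 3.37 in cKO plucked cells, against 1.66 in control plucked and 2.08 in young plucked cells. Fance, a Fanconi anaemia protein, was at 3.31, against 2.08 and 1.73, and Tet2, which oxidises 5-methylcytosine, at 3.29, against 2.24 and 1.94. These 3 were at least 2-fold higher than on the aged plucked array as well.

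Of the 34 lower bright genes, 31 were also at least 2-fold below the aged plucked array. Cebpa, a transcription factor of keratinocyte differentiation, was at 1.36 in cKO plucked cells, against 2.68 in control plucked and 3.24 in young plucked cells. Foxp1, a forkhead factor, was at 0.92, against 2.26 and 1.93, and Timp2, an inhibitor of matrix metalloproteases, at 1.87, against 2.89 and 3.36, though its second probe differed from the control by -0.18. Polr1c, a subunit of RNA polymerases I and III, was at 2.29, against 3.64 and 4.09. Cd151 is among these genes.

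Over the 34 gene lists, 548 different genes were kept, of which 66 (12.0%) passed 2-fold upwards and 52 (9.49%) downwards in cKO plucked against control plucked cells, near the shares over all genes of 11.6% and 12.0%. Of the 66, 24 were also higher than in young plucked cells, and 3 were lower; of the 52, 29 were also lower, and 1 was higher. Most of the higher list genes thus did not hold against the second wild-type array.

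**Figure D4:**
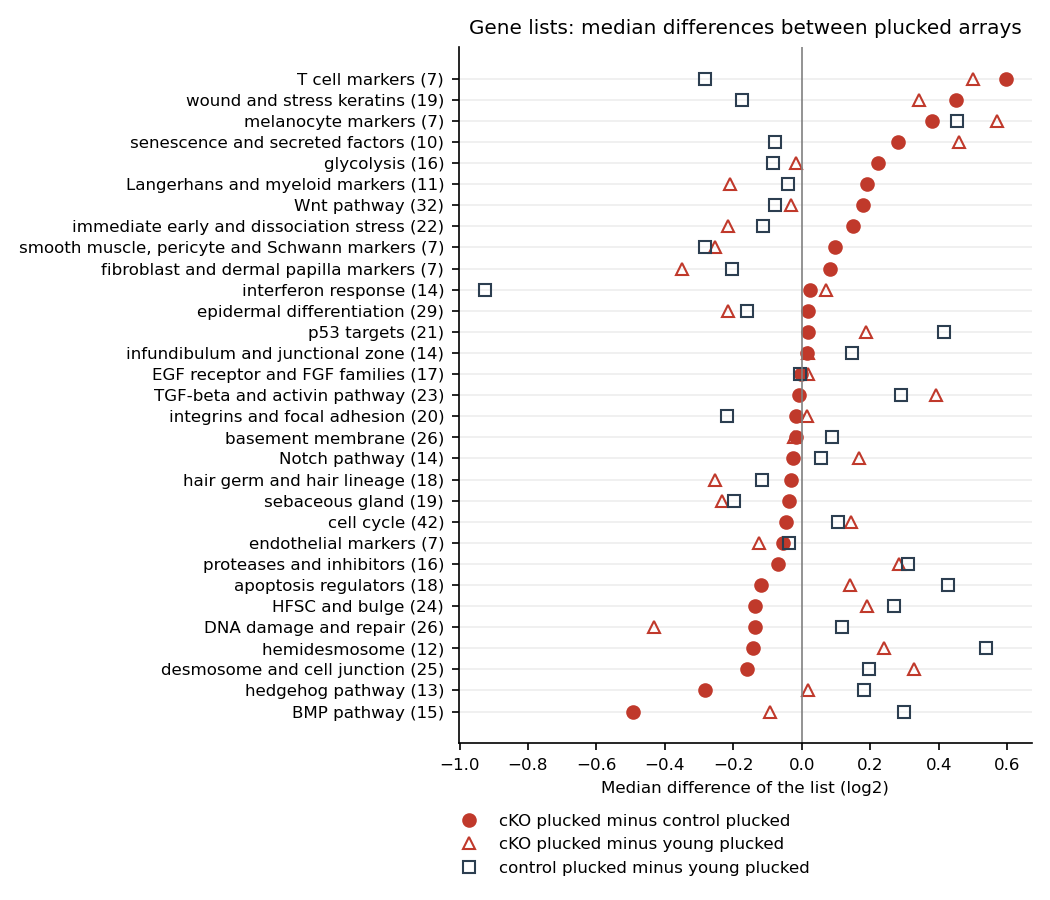
Points give the median log2 difference over the kept genes of each list with at least 7 of them (number in brackets), for cKO plucked minus control plucked (filled red circles), cKO plucked minus young plucked (open red triangles) and control plucked minus young plucked (open squares). The circles run from -0.49 for the BMP pathway to 0.60 for T cell markers, within the range of the squares, -0.93 to 0.54, except at the upper end.

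Of the 24 genes of the HFSC and bulge list, 3 were higher (12.5%, against 11.6% over all genes) and 2 lower (8.33%, against 12.0%), shares near the background, with a median of -0.14. Lgr5, a marker of follicle stem cells, was at 4.71 in cKO plucked, against 4.73 in control plucked and 4.10 in young plucked cells. Sox9, a master factor of the follicle, was at 5.50, against 5.66 and 4.73. The 3 higher genes were Fgf18, a growth factor that keeps follicles at rest, Aspn, a matrix proteoglycan, and Bmp6, and the 2 lower were Hopx, an atypical homeodomain protein, and Wif1, a secreted Wnt inhibitor. Of these 5 only Wif1 was also at least 2-fold from the young plucked array in the same direction.

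Genes of cell division lay close together in cKO plucked and control plucked cells: 40 of 42 were within 2-fold (median -0.05). The other 2 were higher (4.76%, against 11.6% over all genes) and none was lower (background 12.0%). All 42 were well above background on both arrays, and the part of brightness in this closeness was not tested. Mki67, a marker of cycling cells, was at 5.26 in cKO plucked, against 5.41 in control plucked and 5.10 in young plucked cells. Top2a, the topoisomerase of replicating chromosomes, was at 0.67, against 0.66 and 1.13. The 2 genes apart were Cdk1, the kinase that drives mitosis, at 1.99, against 0.42 and -0.92, and Tyms, which makes thymidylate, at 0.09, against -1.27 and -0.74. The Cdk1 call rests on the probe used, since the other 2 kept probes differed from the control by 0.05 and 0.13. In resting cells the cKO minus control median of the list was 0.96, with 19 of 38 genes higher (background 17.6% of all genes of the resting pair) and 7 lower (18.4%, against 20.9%).

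Of 26 genes of the DNA damage response, none was at least 2-fold higher (background 11.6%) and 7 were lower, 26.9% against a background of 12.0%. The other 19 lay within 2-fold, 10 of the 26 differences were above 0 and 16 below, and the median was -0.14. With normexp 5 genes were lower and none higher, against 898 lower and 894 higher of all 25069 genes kept. Chek2, a checkpoint kinase, was at -2.08 in cKO plucked, against 0.64 in control plucked and -0.14 in young plucked cells. Exo1, an exonuclease of end resection, was at -0.64, against 0.94 and 0.97, and Trp53bp1, which steers break repair, at -0.49, against 1.33 and 0.83. For these 3 genes the cKO array was below both wild-type arrays, while the second Trp53bp1 probe differed from the control by -0.67.

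Fanca, a Fanconi anaemia core protein, differed from the control by -1.08 with the probe used and by -0.43 with the second, and Xrcc2, a protein of homologous recombination, was not well above background on the cKO array and at least 3.32-fold lower. Blm, a helicase, and Lig4, the ligase of end joining, were lower than in the control by 1.23 and 1.93 but lay within 2-fold of the young plucked array. Against the young plucked array, 3 genes of the list were higher and 6 lower. Atm and Atr, the apical kinases, differed from the control by -0.45 and -0.01, and with their second probes by -1.21 and 0.53. Fanci differed by 0.50 with the probe used and by 1.23 with the second. For Atm and Fanci the count at 2-fold thus depends on the probe. In resting cells 7 of the 20 kept genes of the list were higher in cKO than in control cells (35.0%, against 17.6%) and 5 lower (25.0%, against 20.9%).

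In the BMP pathway 1 gene was higher, Bmp4 (6.67%, against 11.6% over all genes). Of the 15 genes 4 were lower (26.7%, against 12.0%), and the median was -0.49. With normexp 1 was higher and 2 were lower, against 894 and 898 of all 25069 genes kept. The lower ones were the ligand Bmp2, the target genes Id1 and Id3, and Smad7, a feedback inhibitor that BMP and TGF-beta signals induce. Id3 was at -1.24 in cKO plucked, against 0.33 in control plucked and 1.09 in young plucked cells, and Bmp2 at -3.21, against -1.14 and -1.75. Smad7 was at -2.0, against -0.32 and -0.97. Id1 lay between the wild-type arrays, with 1.32 in cKO plucked, against 2.34 in control plucked and 0.44 in young plucked cells.

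The receptors Bmpr1a and Bmpr2 differed from the control by -0.26 and 0.28, and the transducers Smad1 and Smad5 by -0.59 and 0.16, although another Smad1 probe differed by 1.78. The antagonists Nog and Grem1 differed by 0.41 and -0.49. These receptors and antagonists lay within 2-fold of the control. In resting cells Id3 was at 0.87 in cKO, against 3.05 in control, 2.51 in young and 2.15 in aged cells, so the cKO array was the lowest of the 4.

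Of the 29 genes of epidermal differentiation, 5 were at least 2-fold higher (17.2%, against 11.6% over all genes) and none lower (0%, against 12.0%), with a median of 0.02. Ivl, the cornified envelope protein involucrin, was at 0.76 in cKO plucked, against -1.55 in control plucked and -1.14 in young plucked cells; its second probe differed by 0.35. Sprr1a, another envelope protein, was at 1.52, against -0.08 and -0.39, and Cst6, a protease inhibitor of the stratified layers, at 1.93, against 0.63 and 0.83. These 3 held against both wild-type arrays. Flg, filaggrin, was higher than in the control by 1.45 and lower than in young plucked cells by 1.99, and Sprr1b was higher than in the control alone.

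The early keratins of differentiation lay within 2-fold of the control. Krt1 was at 2.90 in cKO plucked, against 2.56 in control plucked and 3.68 in young plucked cells, and Krt10 at 3.02, against 3.48 and 3.45. In resting cells 1 of 27 kept genes of this list was higher in cKO than in control cells (3.7%, against 17.6%) and 12 were lower (44.4%, against 20.9%). Ivl and Sprr1a were not well above background on the resting cKO array.

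Among wound and stress genes 6 of 19 were higher (31.6%, against 11.6% over all genes) and 2 lower (10.5%, against 12.0%). The median was 0.45. With normexp 2 were higher and none lower, against 894 and 898 of all 25069 genes kept. Krt6a and Krt16, keratins of wounded epidermis, were at 1.02 and 0.38 in cKO plucked cells, against 0.02 and -0.88 in control plucked and 0.96 and 0.69 in young plucked cells. Stfa1, a cysteine protease inhibitor, was at 1.45, against -1.13 and 1.11. For these genes the cKO and young arrays lay together and the control array was the low one; of the 6 higher genes 4 were also at least 2-fold lower in control than in young plucked cells, and 1 of the 6 was higher in cKO than in young plucked cells. Fosb, an immediate early gene, was at 2.39 in cKO plucked, against 0.32 in control plucked and 2.98 in young plucked cells, nearer to the young array. Fos, another, lay between the wild-type arrays, at 1.07, against 0.01 and 1.95.

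Among adhesion and matrix genes outside the hemidesmosome, some were higher and some lower than in the control. Of 26 basement membrane genes 3 were higher (background 11.6%) and 1 lower (3.85%, against 12.0% over all genes). The share of higher genes was thus close to the background and that of lower genes below it. Lama4, a laminin chain, was not well above background on the cKO plucked array and at least 14.0-fold lower than in control plucked cells, while Fbln2, a fibulin, was at 1.37 in cKO plucked, against -0.20 in control plucked and 0.52 in young plucked cells. Itga3, a laminin-binding integrin chain, was at -1.51, against 0.00 and 0.54, and Pxn, the focal adhesion adaptor paxillin, at -1.07, against 0.36 and 0.78. In resting cells Itga3 was at -0.32 in cKO, against 2.18 in control, 0.94 in young and -0.81 in aged cells, within the wild-type range.

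Of 25 desmosome and cell junction genes, 3 were higher (12.0%, against 11.6% over all genes) and none lower (background 12.0%). Gjb2, the connexin 26 gene, was among the higher ones, at 2.36 in cKO plucked, against 1.22 on both wild-type arrays. Of 16 genes of proteases and inhibitors, 2 were higher (12.5%) and 4 lower (25.0%). Plau, the urokinase gene, was at 0.30 in cKO plucked, against 2.06 in control plucked and 1.08 in young plucked cells. Adam10, Adam9 and Adam17, membrane proteases that can shed ectodomains, differed from the control by -0.06, -0.36 and 0.13.

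In the Wnt pathway 4 of 32 genes were higher (12.5%, against 11.6% over all genes) and 2 lower (6.25%, against 12.0%). Fzd8, a receptor, was at -1.22 in cKO plucked, against -3.79 in control plucked and -2.34 in young plucked cells, and Wnt3a, a ligand, was at -2.41, against -4.19 in control plucked cells, and not well above background in young plucked cells. Axin2, a feedback target, differed from the control by 0.56, and by 1.77 with its second probe. In the hedgehog list none of 13 genes was higher and 2 were lower (15.4%), the ligand Dhh and Hhip, a decoy receptor. Hhip was at -2.31 in cKO plucked, against -0.52 and -0.45 in control plucked and young plucked cells, with -0.57 between cKO and control at its second probe, while Gli1, a transcriptional target, was at 3.50, against 3.1 and 3.35.

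Among 23 genes of the TGF-beta and activin list none was higher (background 11.6%) and 2 were lower (8.7%, against 12.0% over all genes). These were Tmeff1, whose second probe differed by 0.02, and Ski, a corepressor of SMADs. Ski was at -1.07 in cKO plucked, against 0.87 in control plucked and 0.89 in young plucked cells. Of 21 p53 targets 2 were higher (9.52%), Sesn2 and Bbc3, and 1 was lower (4.76%), Btg2. Sesn2, a stress-response inhibitor of mTORC1, was at 1.88 in cKO plucked, against 0.25 and 0.28. Of 18 apoptosis regulators 1 was higher (5.56%) and 2 were lower (11.1%), Bcl2l11 and Bmf, which encode death-promoting BH3-only proteins. Bcl2l11 was at -3.04, against -0.90 and -1.29 in control plucked and young plucked cells.

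Among the other lists, 4 of 18 hair germ and hair lineage genes were higher (22.2%, against 11.6% over all genes) and 3 lower (16.7%, against 12.0%). Eda, the ligand ectodysplasin, was at -1.19 in cKO plucked, against 0.56 in control plucked and 0.33 in young plucked cells. Of 14 infundibulum and junctional zone genes 3 were higher (21.4%) and 2 lower (14.3%). Krt79, a keratin of the upper follicle, was at 4.50, against 3.43 and 3.70. Of 10 senescence and secreted factors 3 were higher and 1 lower, and Glb1, the lysosomal beta-galactosidase, was at -0.94, against -2.41 and -2.39. Eda and Glb1 were apart from both wild-type arrays and Krt79 from the control alone.

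Of 14 interferon response genes 3 were higher (21.4%, against 11.6% over all genes) and 2 lower (14.3%, against 12.0%). Xaf1 was at least 16.5-fold and Gbp2 at least 13.6-fold higher in cKO plucked than in control plucked cells, where neither was well above background; on the young plucked array they stood at -2.44 and -1.51, against -0.55 and -0.82 in cKO plucked cells. For these 2 genes the control array was the lowest of the 3. Over the list, 9 of 19 genes were lower and 2 higher in cKO plucked than in young plucked cells (14.7% and 13.7% over all genes). Between control plucked and young plucked cells 9 of 19 were lower and none higher (12.4% and 10.3% over all genes). Of 16 glycolysis genes 3 were higher (18.8%) and none lower, and none of these 3 was apart from the young plucked array.

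The 17 kept genes of the EGF receptor and FGF families gave 3 higher and 1 lower, the 14 of the Notch pathway 1 and 2, the 19 of the sebaceous gland 2 and 2, the 20 integrin and focal adhesion genes 3 and 2, and the 22 immediate early genes 3 and 1. All of these counts lay within a few genes of the background shares of 11.6% higher and 12.0% lower.

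Markers of other cells were looked at because a sorted sample can hold some of them, and in bulk RNA fewer cells of a type and less RNA per cell cannot be told apart. T cell markers summed, on a linear scale in multiples of the 75th percentile intensity, to 5.98 on the cKO plucked, 3.23 on the control plucked and 3.96 on the young plucked array. Thy1 made up most of the gap from the control: without it the sums were 3.75, 3.00 and 2.91 on the cKO plucked, control plucked and young plucked arrays. Of 11 measured on the array, 7 were well above background. Of these 7, 3 were higher (42.9%, against 11.6% over all genes) and none lower (background 12.0%). Thy1, a surface protein of T cells and fibroblasts, was at 1.16 in cKO plucked, against -2.17 and 0.08, Cd3g at -2.09, against -3.84 in control plucked cells and not well above background in young plucked cells, and Cd7 at -1.15, against -2.99 and -2.53. Cd3d, Cd2 and Gzmb were not well above background on the cKO plucked or the control plucked array. The part of such cells in the differences above was not tested.

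Among 11 kept Langerhans and myeloid markers 2 were higher (18.2%, against 11.6% over all genes) and 3 lower (27.3%, against 12.0%). The sums were 23.9 on the cKO plucked, 19.6 on the control plucked and 25.3 on the young plucked array. Cd74, the invariant chain of MHC class II, was at 1.14 in cKO plucked, against -2.43 in control plucked and -1.40 in young plucked cells, while H2-Aa, a class II chain, was lower than in the control by 2.15 and Cd207, the langerin gene of Langerhans cells, was not well above background on either array. Of 7 kept melanocyte markers 2 were higher (28.6%), Mlana and Sox10, and none lower. Their sums were 2.75 on the cKO plucked, 2.16 on the control plucked and 1.81 on the young plucked array. Fibroblast markers summed to 4.67, 4.14 and 5.23, and endothelial markers to 3.24, 3.08 and 3.42, on the cKO plucked, control plucked and young plucked arrays. The endothelial and fibroblast genes Pecam1, Cdh5, Pdgfra and Lum were not well above background on the cKO plucked or the control plucked array.

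The differences between the plucked arrays were not those between the resting arrays. With 1 array a side and the limits of both resting arrays given above, whether the deletion acts differently after plucking cannot be told from these values. Between resting cKO and resting control HFSCs, 4249 genes (17.6%) passed the 2-fold threshold upwards and 5021 (20.9%) downwards. Of the 2068 genes higher in cKO plucked cells and kept in the resting pair, 27.3% were also higher and 29.6% were lower in resting cKO cells. Of the 2187 lower genes, 31.3% were also lower and 28.9% were higher. A gene below background on 1 resting array is counted here by its measured value. Over the 22355 genes kept in both pairs, which share no array, the differences had the same sign in 49.4% and correlated at r = 0.0036 (across genes, as a description).

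**Figure D5:**
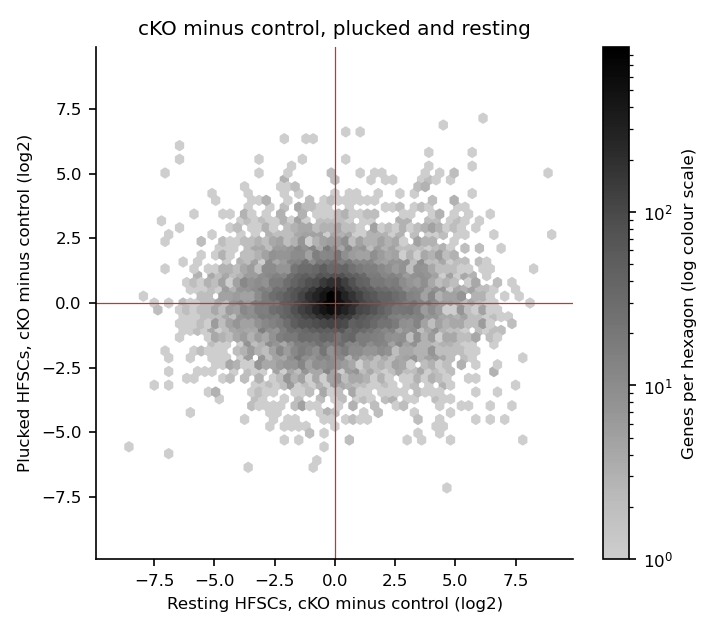
Hexagons show how many of 22355 genes have a given cKO minus control difference in resting HFSCs (horizontal axis, log2) and in plucked HFSCs (vertical axis, log2), darker for more genes on a log colour scale. The cloud is centred on 0 and has no slope (r = 0.0036).

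A small set of genes lay apart on both cKO arrays, by a rule chosen after the data had been seen: 65 genes (0.259%) were at least 2-fold higher on both cKO arrays than on all 6 wild-type HFSC arrays (young, aged and control, each resting and plucked), and 65 (0.259%) were at least 2-fold lower. Of these, 7 of the higher and 12 of the lower were well above background on all 8 HFSC arrays. Vps11, a subunit of complexes that tether endosomes, was at 1.80 in cKO plucked and 2.11 in cKO resting cells, against 0.35 in control plucked, 0.50 in control resting and at most 0.67 on the other wild-type arrays. Nab2, a corepressor of EGR factors, was at -0.84 and -1.23 in cKO plucked and cKO resting cells, against 0.64 and 1.40 in control plucked and control resting cells. Gypc, Cyba, Borcs6 and Rabgef1 are in this set. Since the cKO samples carry no strain label, genotype and strain background cannot be told apart for these genes, as for every other cKO difference here.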

How the data were processed

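Per the file headers, the scanner values were made with Agilent Feature Extraction 10.7.3.1 (protocol GE1_107_Sep09, mm9); the processed intensity deposited by the authors is a linear, background-subtracted and detrended spot signal. The authors' value table holds log2 values; how the authors made it is not given in the sources used here. Its columns followed the scanner log2 values minus the 75th percentile of the array and the probe's median over the arrays, with r of at least 0.99988; the column medians were -0.15 for cKO plucked, -0.2 for control plucked and -0.14 for young plucked cells. Per the labels, 1 to 10 ng of RNA was amplified before labelling, and the number of arrays limits the precision.

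Here, control and outlier spots were left out (no spot was saturated), log2 intensities were set relative to the 75th percentile of each array, spots of the same probe were averaged, and a gene took its probe with the highest mean over the 12 arrays. RefSeq accessions named 28354 of 55681 probes; the others kept the names in the array files. No test was possible. Some genes counted in the lists are not reported here by name. Genes named were those of the hemidesmosome list, the 12 farthest each way from both wild-type plucked arrays among curated symbols, the 6 brightest seen on 1 side only each way, and list genes at least 2-fold apart (at most 4 per list and direction) with members of known role. The lists (34, with 649 of 653 genes matched) and the comparison were chosen with earlier results of these data known. Lower bounds use the lowest signal well above background on the dim array, or the measured dim value where higher. Alternatives were normexp (limma 3.58.1, R 4.3.3, offset 50), quantile normalization, other scalings, filters and thresholds, the authors' table, the median of a gene's probes and the young plucked array as reference. Tables and plots used Python 3.11.15, pandas 2.3.3 and matplotlib 3.10.9; the counting was tested on simulated data.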

Additional observations from a re-analysis of the deposited data

Results flagged for a closer look

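Several named genes lay at least 2-fold from the control in opposite directions in plucked and in resting cells, also where a fold had to be taken as a lower bound; the difference between the plucked and the resting pair was not tested, since each group has 1 array. Bmp4 was 15.0-fold higher in cKO than in control plucked cells and 31.5-fold lower in cKO than in control resting cells. The outlying array of the resting pair was the control, at 2.35, while resting cKO, young and aged cells were at -2.63, -1.74 and -1.86. Tex19.1 was 37.9-fold lower in plucked and at least 44.4-fold higher in resting cKO cells. Resting control cells were not well above background for Tex19.1, while resting cKO, young and aged cells were at 1.37, -0.33 and -0.58.

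Rnf41 was 9.08-fold lower in plucked and 14.6-fold higher in resting cKO cells, where the cKO array, at 1.83, lay above the control, young and aged arrays, at -2.04, -1.55 and -0.73. Fgl1 was at least 33.0-fold lower in plucked and at least 5.39-fold higher in resting cKO cells, and Bcl2l15 at least 9.37-fold lower and 4.81-fold higher. Prrg3 was 12.6-fold lower and 2.67-fold higher, and Rtn4ip1 7.04-fold lower and 2.60-fold higher, in plucked and resting cKO cells.

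Many lists had medians of opposite sign in the plucked and the resting pair, and others kept their sign. Basement membrane genes, for example, had -0.02 and 1.34, and glycolysis genes 0.22 and -0.28. Of those with opposite signs, 3 were flagged by the size of both medians and the number of kept genes. For wound and stress genes the median was 0.45 in plucked and -0.97 in resting cells, for T cell markers 0.60 and -0.31, and for senescence and secreted factors 0.28 and -0.32. No group held enough arrays for a check of samples that stand apart.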

How the results depend on the processing

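No paired analysis was possible because each group has 1 array and no result comes from a test; for the same reason no array could be left out. With normexp, the genes at least 2-fold apart from control plucked numbered 894 higher and 898 lower (main 2902 and 3016), those apart from both wild-type arrays 388 and 302 (main 1569 and 1490), and list genes apart 45 (main 118). With every compared array well above background, the counts were 1815 and 1666 against the control and 755 and 866 against both; at 3-fold they were 1528 and 1690, and 722 and 704. Fewer genes tested or a higher threshold explain the last 2 settings by construction; for normexp the cause was not tested. Quantile normalization, scaling to the median, the authors' table, no filter on dim probes, the median of probes and the young plucked array as reference kept these counts within 1.5 times. The median of all differences ran from -0.02 with scaling to the median to 0.14 without a filter. Of 143 alternative values for the 36 named genes, 87 moved by less than 0.505, the median absolute difference between the wild-type plucked arrays, 55 moved by more, 36 of them under normexp, and 1 changed sign: Fbln7 was at -0.027 as the median of its probes. Of 170 list medians, 166 moved by less than this and 4 by more. Dim genes, most of which lay 2-fold apart in either pair below a level of -4, limit the counts.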
